A study of Mus musculus with 105 samples.

Results

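Sez6l, Sez6, Sez6l2, Cnga3, Vwa3b, Gabrr1, Gabrr2, Lhx9 and Efcab6 make up 9 of the 53379 genes in a count table that covers tumour cell lines, melanocytes in culture and 12 tissues of the mouse. Sez6l, Cnga3, Gabrr1, Lhx9 and Efcab6 were chosen by their counts: they lay near 0 in control (Ctrl) libraries of the melanoma lines B16 and B16OVA and were raised in the Setdb1 knockout (KO) libraries of both. Vwa3b and Gabrr2 were added as the genes next to Cnga3 and Gabrr1, and Sez6 and Sez6l2 as the paralogs of Sez6l. Because KO against Ctrl in B16 and B16OVA chose the members, their values in that contrast are given as a description with no test. Tests are given for the other lines, for melanocytes and for tissues.

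The data are mRNA-seq gene counts from 105 libraries, all of strain C57BL/6 by label. B16 (melanoma; 3 WT, 3 Ctrl, 3 KO libraries), B16OVA (melanoma, a B16 derivative by name; 6 of each), MCA101OVA (fibrosarcoma; 3 of each) and MC38 (colon adenocarcinoma; 3 of each) were grown in RPMI medium with puromycin. WT and Ctrl are their conditions without the knockout. The other libraries are 5 of melanocytes cultured from newborn C57BL6/J mice, 4 of each of 12 tissues from WT female mice (brain, skin, lung, heart, liver, kidney, ovary, stomach, colon, spleen, thymus and LN), and 7 WT tumour libraries of run B176, whose groups have no replicate. How KO and Ctrl cells were made, whether a line is 1 clone and whether replicates are separate cultures is not stated in the labels, so a p-value may measure technical spread alone.

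Setdb1 methylates lysine 9 of histone H3, a mark that keeps repeats and many tissue-restricted genes silent. Sez6, Sez6l and Sez6l2 encode neuronal membrane proteins with CUB and sushi domains that act in synapse maturation. Cnga3 encodes the cone photoreceptor subunit of the cyclic nucleotide-gated channel, and Gabrr1 and Gabrr2 encode rho subunits of GABA-gated chloride channels known from retinal bipolar cells. Lhx9 is a LIM homeobox transcription factor of the developing gonad and forebrain, Efcab6 an EF-hand calcium-binding protein, and Vwa3b a protein with a von Willebrand factor A domain.

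The 9 genes lie at 7 places in mm10 (GENCODE vM21 positions). Cnga3 (chr1:37214434-37263384, plus strand) starts 26.8 kb after the end of Vwa3b (chr1:37026596-37187613, plus strand), and Gabrr1 (chr4:33132521-33163588, plus strand) starts 36.7 kb after the end of Gabrr2 (chr4:33062999-33095865, plus strand), with 0 annotated genes between the members of either pair. Sez6l (chr5:112419151-112577185), Lhx9 (chr1:138825186-138848577) and Efcab6 (chr15:83866712-84065379) are on the minus strand. Sez6 (chr11:77930800-77979048) and Sez6l2 (chr7:126950563-126970606) are on the plus strand.

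RefSeq promoter windows of the GRCm38.p6 build, from 250 bases before to 50 after a start, were at hand for 6 of the 9 genes. They are shown 5′ to 3′ on the gene's strand, with CpG dinucleotides in capitals, because these windows differ in CpG content. The windows are Sez6l at chr5:112577149-112577448, Cnga3 at chr1:37218028-37218327 (1 of 2 listed starts), Vwa3b at chr1:37029063-37029362, Gabrr1 at chr4:33132306-33132605, Gabrr2 at chr4:33062862-33063161 and Lhx9 at chr1:138842395-138842694.
Sez6l: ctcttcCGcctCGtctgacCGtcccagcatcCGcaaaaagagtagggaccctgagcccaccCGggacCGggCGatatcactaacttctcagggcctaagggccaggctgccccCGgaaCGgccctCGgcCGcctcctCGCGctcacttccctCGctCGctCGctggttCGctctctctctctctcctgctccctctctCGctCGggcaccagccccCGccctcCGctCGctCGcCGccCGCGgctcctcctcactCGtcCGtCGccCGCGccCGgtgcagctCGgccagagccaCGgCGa
Cnga3: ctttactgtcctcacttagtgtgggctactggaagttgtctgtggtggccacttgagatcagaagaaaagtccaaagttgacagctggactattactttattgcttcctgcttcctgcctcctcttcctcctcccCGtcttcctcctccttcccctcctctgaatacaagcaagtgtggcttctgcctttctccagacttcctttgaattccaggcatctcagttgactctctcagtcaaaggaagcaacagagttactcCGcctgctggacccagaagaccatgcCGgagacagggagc
Vwa3b: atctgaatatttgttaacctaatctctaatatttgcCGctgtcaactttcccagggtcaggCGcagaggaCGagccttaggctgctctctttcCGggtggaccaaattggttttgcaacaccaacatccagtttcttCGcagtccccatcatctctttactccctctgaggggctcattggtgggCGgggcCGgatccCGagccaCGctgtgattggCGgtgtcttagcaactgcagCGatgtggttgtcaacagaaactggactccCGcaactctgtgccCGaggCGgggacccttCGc
Gabrr1: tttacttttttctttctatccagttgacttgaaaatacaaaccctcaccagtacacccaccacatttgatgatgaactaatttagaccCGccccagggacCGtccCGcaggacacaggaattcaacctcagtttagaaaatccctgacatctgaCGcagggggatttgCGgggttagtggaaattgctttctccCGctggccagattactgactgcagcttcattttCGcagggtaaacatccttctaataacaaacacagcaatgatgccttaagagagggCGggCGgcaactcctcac
Gabrr2: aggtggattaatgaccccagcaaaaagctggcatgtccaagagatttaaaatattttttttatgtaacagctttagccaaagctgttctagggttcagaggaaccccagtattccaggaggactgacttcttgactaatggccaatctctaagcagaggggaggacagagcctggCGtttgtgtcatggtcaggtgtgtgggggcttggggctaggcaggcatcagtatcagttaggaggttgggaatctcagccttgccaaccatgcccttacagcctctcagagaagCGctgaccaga
Lhx9: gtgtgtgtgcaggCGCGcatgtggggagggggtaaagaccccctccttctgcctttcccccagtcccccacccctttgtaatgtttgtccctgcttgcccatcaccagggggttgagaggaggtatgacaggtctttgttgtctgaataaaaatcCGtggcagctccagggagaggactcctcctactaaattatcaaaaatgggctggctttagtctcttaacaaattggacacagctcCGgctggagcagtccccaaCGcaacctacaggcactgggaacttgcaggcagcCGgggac
Sez6l held 35 CpGs in 300 bases, more than 93.0% of the 32851 promoter windows listed for mouse, whose median was 7. Vwa3b held 15, Gabrr1 9, Lhx9 6, Cnga3 3 and Gabrr2 2, so these windows of raised genes ran from below the median to far above it. The windows of Sez6l, Gabrr1 and Gabrr2 cover the annotated 5′ end of the gene. Those of Cnga3, Vwa3b and Lhx9 lie inside the annotated gene, so their CpG counts describe internal starts and not the outermost one. The letters GGGCGG (a GC box) on either strand were found at 2 places in Sez6l, at 3 (partly overlapping) in Gabrr1 and at 1 in Vwa3b, against 35.7% of all windows with at least 1. The letters TATAAA were in none of the 6 windows shown and at 1 place in the window of the other listed Cnga3 start, chr1:37218955-37219254 (13.6% of all windows). The letters CAGCACC, the core of the element bound by the neuronal repressor REST, were in none of these 7 windows (7.14% of all windows). Matches were sought on both strands, no match of one motif overlapped a match of another, and the absence of a match speaks only of these letters in these windows.

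The 45 tumour line libraries that were fitted together held 17.2 to 50.4 times 1000000 counts each, melanocyte libraries 19.9 to 30.6 and tissue libraries 53.6 to 254 times that number, so that 1 CPM (count per 1000000 counts of the library) stands for at least 17.2 counts. Setdb1 ran at 11.7 to 20.6 CPM in B16 KO against 59.5 to 65.1 in Ctrl, at 15.6 to 49.9 against 21.1 to 99.4 in B16OVA, at 20.4 to 36.7 against 45.7 to 95.7 in MCA101OVA, and at 60.05 to 85.3 against 54.9 to 125 in MC38. B16OVA Ctrl replicate 2 (21.1 CPM) and MC38 Ctrl replicate 1 (54.9 CPM) lay inside or below the KO range of Setdb1. Both belong to 9 libraries in which log2 CPM fell with transcript length relative to the others (slope under -0.15), and results are given below without them where a call changes. The 9 melanocyte marker genes, led by Tyrp1, Dct and Pmel, summed to 14530 to 33220 CPM in B16 and B16OVA libraries and to 5.50 to 26.9 CPM in MCA101OVA and MC38, so the melanoma lines carried the markers of their label. The 3 MC38 libraries of run B176, which enter no test, stood apart from the other MC38 libraries: their 8 epithelial markers summed to 0.204 to 2.10 CPM against 454 to 1926.

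**Figure D1:**
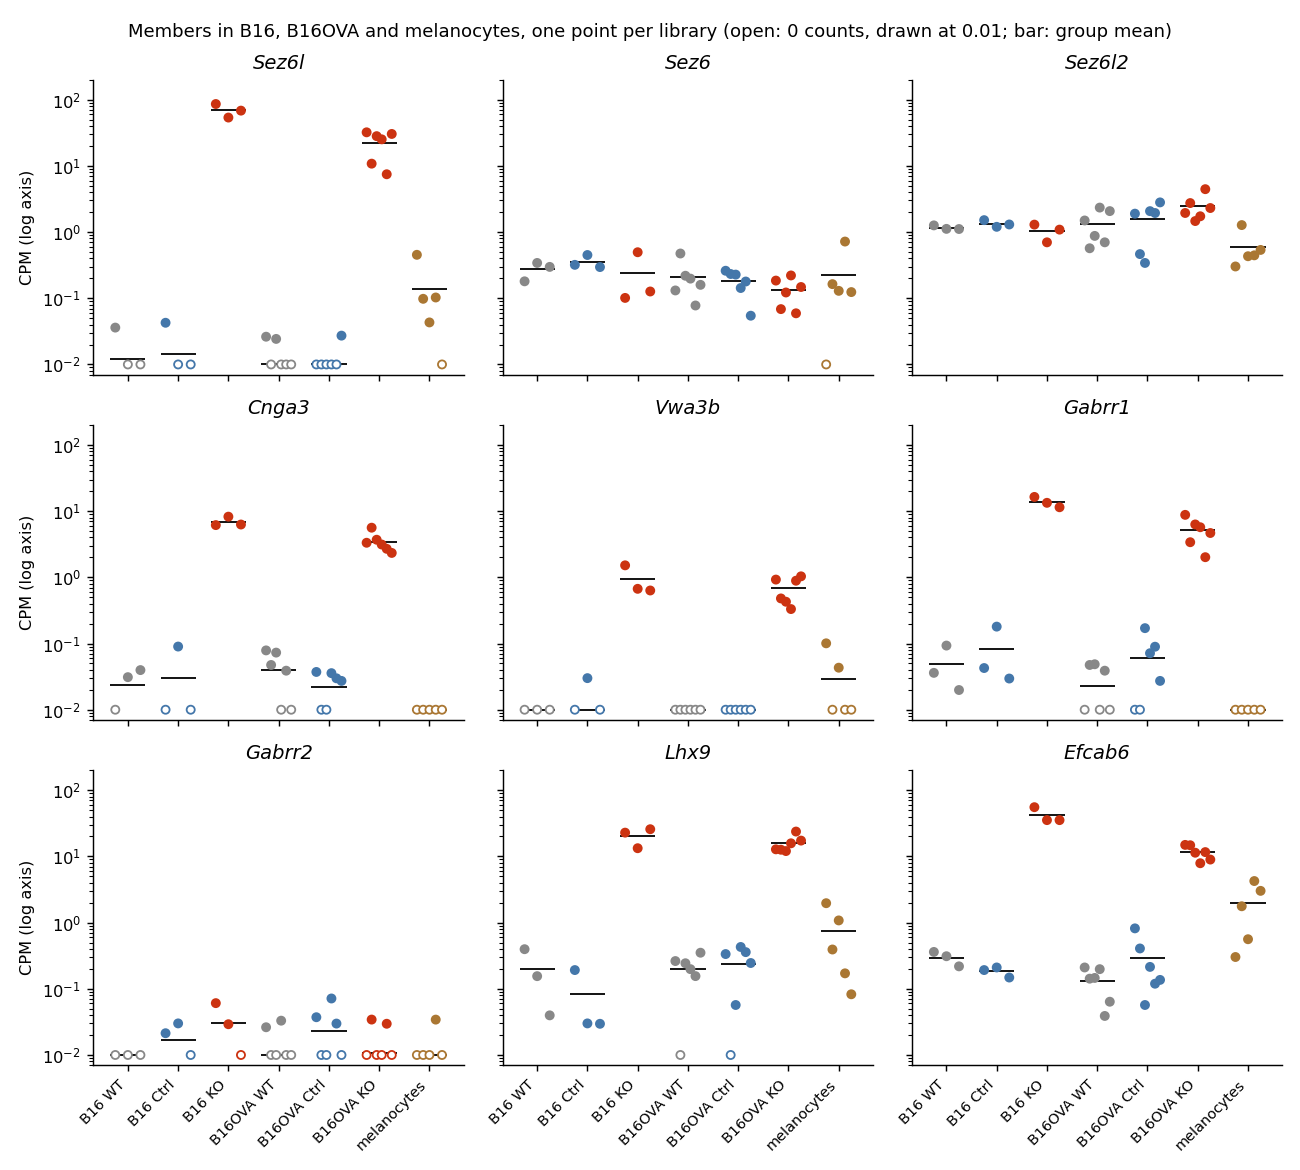
CPM of the 9 genes (log axis, 1 point per library; open points are libraries with 0 counts, drawn at 0.01; bars are group means) in WT, Ctrl and KO libraries of B16 and B16OVA and in melanocytes. Sez6l, Cnga3, Vwa3b, Gabrr1, Lhx9 and Efcab6 lie far above Ctrl and WT in every KO library, while Sez6, Sez6l2 and Gabrr2 overlap between KO and Ctrl.

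Within the Sez6 family, Sez6l went from near 0 to a high level in KO cells while its paralogs overlapped between groups. B16 KO libraries held 85.9, 53.7 and 68.3 CPM of Sez6l, and B16OVA KO libraries held 32.1, 10.8, 28.1, 25.2, 7.47 and 30.3 CPM. No WT or Ctrl library of these lines reached more than 0.0426 CPM, with 6 counts in all over 18 libraries. Its paralog Sez6 stayed low in B16 KO at 0.101, 0.496 and 0.127 CPM against 0.320, 0.450 and 0.296 in Ctrl, and ranged from 0.0593 to 0.221 CPM (median 0.135) in B16OVA KO against 0.0545 to 0.260 (median 0.203) in Ctrl. Sez6l2, the most broadly expressed of the family, ran at 0.700 to 1.30 CPM in B16 KO against 1.1998 to 1.51 in Ctrl, and at 1.47 to 4.44 CPM (median 2.12) in B16OVA KO against 0.341 to 2.81 (median 1.92) in Ctrl. KO and Ctrl libraries overlapped for both paralogs in both lines, and fitted log2 folds were -0.55 and -0.50 for Sez6 and -0.35 and 0.63 for Sez6l2 in B16 and B16OVA.

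Cnga3, the cone channel subunit, held 6.15, 8.25 and 6.28 CPM in B16 KO against 3 counts over the 3 Ctrl libraries. In B16OVA KO it held 2.34 to 5.62 CPM (median 3.23) against 4 counts over 6 Ctrl libraries, a ratio of 137 (95% exact counting interval 53.3 to 504). Such intervals, here and for Gabrr1, Lhx9 and Efcab6 below, cover the counting error of summed counts and not the spread between libraries. They are no test, since this contrast chose these genes. Vwa3b, its neighbour upstream, was raised to a lower level. It held 1.52, 0.670 and 0.633 CPM in B16 KO against 1 count in Ctrl, and 0.332 to 1.03 CPM (median 0.684) in B16OVA KO against 0 counts in 6 Ctrl and 6 WT libraries. The B16OVA rise of Vwa3b is thus 37.2-fold when set against a floor of 3 counts over the Ctrl group, and the lower end of its exact 95% counting interval is 29.8-fold. Every KO library of both lines lay above every WT and Ctrl library for both genes.

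The rho subunit genes, though neighbours, differed. Gabrr1 held 16.4, 13.4 and 11.4 CPM in B16 KO against 0.0426, 0.180 and 0.0296 in Ctrl, a ratio of 177 (93.0 to 387). In B16OVA KO it held 2.01 to 8.78 CPM (median 5.19) against 0 to 0.171 in Ctrl, a ratio of 91.3 (47.9 to 200.2). Gabrr2 had 4 counts in B16 KO and 2 in Ctrl, and 2 counts in B16OVA KO and 4 in Ctrl, too few to pass the filter on low counts. A floor of 3 counts over the group stands for 0.0263 CPM in B16 Ctrl, and the B16 KO mean of Gabrr2 was 0.0300 CPM.

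Lhx9, the homeobox factor, held 22.8, 13.3 and 25.7 CPM in B16 KO against 0.192, 0.0300 and 0.0296 in Ctrl, a ratio of 219 (122 to 439). B16OVA KO libraries held 12.04 to 23.7 CPM (median 14.3) against 0 to 0.428 (median 0.290) in Ctrl, a ratio of 58.9 (43.6 to 81.5). Efcab6 held 55.4, 35.3 and 35.3 CPM in B16 KO against 0.192, 0.210 and 0.148 in Ctrl, a ratio of 236 (154 to 381). In B16OVA KO it held 7.88 to 14.9 CPM (median 11.5) against 0.0569 to 0.818 (median 0.175) in Ctrl, a ratio of 41.3 (30.7 to 56.7). Both genes had counts in the controls of both lines, 11 and 21 in B16 Ctrl and 43 and 45 in B16OVA Ctrl, so neither was fully silent there.

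Fitted log2 folds were above 2 in both lines for 6 of the 8 members that passed the filter: Sez6l, Cnga3, Vwa3b, Gabrr1, Lhx9 and Efcab6. Of all 16809 genes tested, 0.660% were called higher and 0.0297% lower in B16 KO, and 0.994% higher and 0.0595% lower in B16OVA KO (edgeR quasi-likelihood test, Benjamini-Hochberg adjusted p under 0.05). Those shares stand beside members chosen by this contrast and nothing is read from the difference. The median log2 fold of all tested genes was 0.0002 in B16 and -0.01 in B16OVA.

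The raised genes did not have 1 common size of response. Per kb of exon, mean KO levels in B16 were 11.4 CPM per kb for Sez6l, 6.56 for Efcab6, 6.00 for Gabrr1, 2.17 for Lhx9, 1.74 for Cnga3 and 0.175 for Vwa3b. In B16OVA they were 3.68 for Sez6l, 2.25 for Gabrr1, 1.81 for Efcab6, 1.65 for Lhx9, 0.876 for Cnga3 and 0.126 for Vwa3b. The library ranges of Efcab6 and Gabrr1 overlapped in both lines, as did those of Lhx9 and Cnga3, and Sez6l stood above all others in every library of B16 but not of B16OVA. Vwa3b was below the others in every KO library of both lines.

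B16 KO means exceeded B16OVA KO means 3.63-fold for Efcab6, 3.10-fold for Sez6l, 2.67-fold for Gabrr1 and 1.99-fold for Cnga3, with every B16 KO library above every B16OVA KO library for these 4. The share of all tested genes that separate in this way was not computed, so nothing is read from the number of members that do. For Lhx9 (1.31-fold) and Vwa3b (1.38-fold) the libraries of the 2 lines overlapped. B16 KO libraries came from runs B253 and B262 alone, while B16OVA KO libraries also came from run D176. These ratios thus mix line with run. For Efcab6, Sez6l, Gabrr1 and Cnga3, B16 KO also lay above B16OVA KO within runs B253 and B262, which hold both lines. The part of run in the size of the ratios was not tested. Setdb1 itself averaged 17.1 ± 4.78 CPM (SD, n = 3) in B16 KO and 33.5 ± 13.2 (n = 6) in B16OVA KO; its part in the gap was not tested. Among B16OVA KO libraries, replicates 2 and 5 were lowest for both Sez6l (10.8 and 7.47 CPM) and Gabrr1 (3.39 and 2.01 CPM). They were not the lowest pair for Lhx9 or Cnga3: replicate 5 was the highest for Lhx9 (23.7 CPM), and replicate 2 the highest for Cnga3 (5.62 CPM). Replicate 2 is among the 9 libraries of low length slope (-0.20) and replicate 5 is not (0.21). The part of the slope in these values was not tested. B16OVA KO libraries of runs B253, B262 and D176 averaged 32.1, 19.5 and 20.99 CPM of Sez6l, and 12.8, 12.3 and 18.9 CPM of Lhx9. All lay far above the Ctrl libraries. For Lhx9 the means of runs B253 and B262 lay below the lowest B16 KO library (13.3 CPM). In the same order of runs, Gabrr1 averaged 8.78, 4.84 and 4.13 CPM and Cnga3 3.33, 4.66 and 2.72 CPM.

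The genes around the 5 raised genes were set beside the share of all genes called. Within 500 kb of Sez6l, Cnga3, Gabrr1, Lhx9 or Efcab6 lay 124 annotated genes that are not members, of which 43 passed the filter on low counts. In each of B16 and B16OVA, 1 of the 43 was called higher in KO and 0 lower, with 2 at an unadjusted p under 0.05 and 0 called by DESeq2. Of all genes tested, 0.660% were called higher in B16 and 0.994% in B16OVA. The 1 gene called lies inside the member Vwa3b, as described next, so nothing is read from 1 of 43 beside these shares. The median log2 fold of the 43 was 0.10 in B16 and -0.01 in B16OVA. The gene called was Gm37020 (ENSMUSG00000103603, chr1:37132273-37133264, minus strand), annotated as antisense inside Vwa3b, 105677 bases from the Vwa3b start. It had 0 counts in Ctrl of both lines, and held 1.03, 0.496 and 0.456 CPM in the B16 KO libraries and from 0.0368 to 0.678 CPM in those of B16OVA. All other fitted groups also had 0 counts, so it passed the filter only through the KO libraries where it is high. Its calls are thus no support, and no p is given for it. No source used here gives the strand setting of the counting, so reads of Gm37020 and of Vwa3b cannot be told apart, and their rises are not separate observations. Gabrr2 did not pass the filter, and no tested neighbour of Gabrr1, Lhx9 or Efcab6 within 500 kb was called in B16 or B16OVA by edgeR or DESeq2. Within 1000 kb, 85 such genes were tested and 3 were called higher in B16 (Sgsm1, Fam178b and Gm37020) and 2 in B16OVA (Fam178b and Gm37020). In MCA101OVA and MC38, edgeR and DESeq2 both called 0 of the 43 neighbours within 500 kb, and 2 and 0 had an unadjusted p under 0.05.

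**Figure D2:**
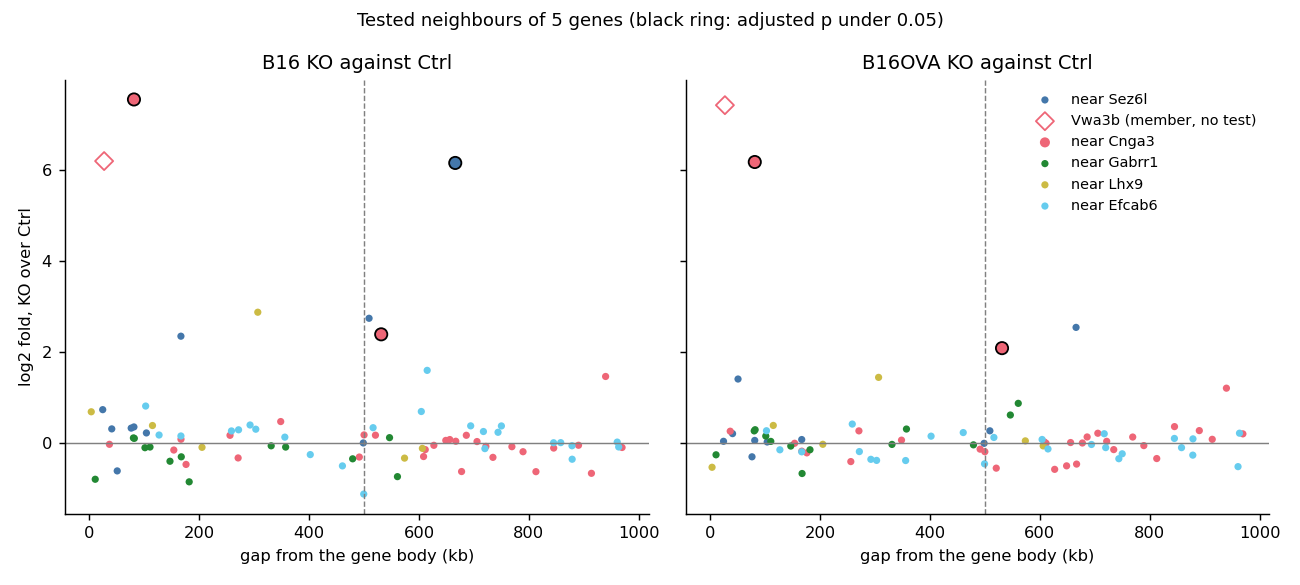
Log2 fold of KO over Ctrl in B16 (left) and B16OVA (right) for tested genes within 1000 kb of Sez6l, Cnga3, Gabrr1, Lhx9 and Efcab6, by their gap from the gene body in kb. Black rings are genes called at an adjusted p under 0.05; the open diamond is Vwa3b, a member with no test. Most points lie near 0.

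Outside melanoma, Cnga3 was the only member with KO levels of 1 CPM or more in every library of a group together with higher KO than control levels. MCA101OVA KO libraries held 1.69, 4.66 and 2.40 CPM of Cnga3, against 0.351, 0.411 and 1.11 in Ctrl and 0.511, 1.30 and 1.45 in WT. All 3 KO libraries lay above all 6 control libraries, although Cnga3 was already on in this fibrosarcoma line without the knockout. The KO to Ctrl count ratio was 4.81 (3.53 to 6.70), and the log2 fold was 2.14 (SE 0.60, n = 3 against 3). With an unadjusted p of 0.000971 it missed the threshold over all genes (edgeR quasi-likelihood test, adjusted p = 0.185). DESeq2 called it (adjusted p = 0.00391), and so did edgeR with the length slope as a covariate (adjusted p = 0.0499). Without the 9 libraries of low length slope, which leaves 1 Ctrl and 2 KO libraries of this line, the log2 fold was 1.12 (adjusted p = 1). With WT in place of Ctrl it was 1.52 (adjusted p = 0.902).

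In MC38, Cnga3 stayed under 1 CPM, at 0.706, 0.227 and 0.175 CPM in KO against 0.166, 0.121 and 0 in Ctrl and 0.177, 0.189 and 0.0292 in WT. KO and WT libraries overlapped, and the log2 fold over Ctrl was 1.87 (SE 0.75, edgeR adjusted p = 1). Without KO replicate 1 it was 0.96. The KO effects on Cnga3 in MCA101OVA and MC38 differed by a log2 of 0.28 (SE 1.13, adjusted p = 1). This SE is approximate, being taken from the test statistic, and the 2 effects are not shown to be alike.

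In the 9 libraries of each line that the fit used, which leaves out run B176, the other raised genes were near 0. Gabrr1 held 0.206, 0.165 and 0.165 CPM in MCA101OVA KO against 0, 0.0914 and 0 in Ctrl and 0.0232, 0.102 and 0 in WT. These are 19 counts against 2 and 4, with every KO library above every control library (log2 fold 2.34, SE 1.09, adjusted p = 0.878). Efcab6 had 8 counts in MCA101OVA KO and 0 in Ctrl, and 0 counts in these 9 MC38 libraries. Lhx9 had 2 counts in MCA101OVA KO and at most 3 counts in each of MC38 KO, Ctrl and WT, and Sez6l had 2 counts in MCA101OVA KO and 0 counts in those 3 MC38 groups. At a floor of 3 counts over a group, Sez6l would have been seen in MC38 KO from 0.0485 CPM, against 22.3 and 69.3 CPM in the KO melanoma groups.

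The filter works over all 45 libraries, so members could pass it through the melanoma libraries alone, and a count of calls over the 8 that passed says little here. In MCA101OVA, Sez6l, Sez6, Vwa3b and Lhx9 had at most 2 counts in KO and at most 1 in Ctrl, too few for a call. Sez6l2, Cnga3, Gabrr1 and Efcab6 had more counts and were not called by edgeR, where 0.339% of all genes were called higher and 0.00595% lower. At an unadjusted p under 0.05 there were 3 (Cnga3, Gabrr1 and Efcab6), and DESeq2 called 1 (Cnga3). In MC38, Sez6l, Gabrr1 and Efcab6 had 0 counts in KO and Ctrl, so nothing was tested for them, and Sez6, Vwa3b and Lhx9 had at most 3 counts in either group. Sez6l2 and Cnga3 were called by neither edgeR nor DESeq2, with 1 (Cnga3) at an unadjusted p under 0.05, where 0.464% of all genes were called higher and 0% lower. Sez6l2 was present in both lines and overlapped between groups, at 0.611 to 1.27 CPM in MCA101OVA KO against 0.183 to 1.76 in Ctrl and at 0.524 to 1.04 in MC38 KO against 0.538 to 0.633 in Ctrl. Its log2 folds were 0.16 (SE 0.57) and 0.29 (SE 0.59). Gabrr2 had some counts in every library of both lines that the fit used, at 0.0457 to 0.614 CPM in MCA101OVA and 0.0582 to 0.265 CPM in MC38, with KO and Ctrl overlapping. In MC38 the Setdb1 level itself overlapped between KO and Ctrl only through Ctrl replicate 1 (54.9 CPM). Ctrl replicates 2 and 3 held 123 and 125 CPM against 60.05 to 85.3 in KO. The part of the Setdb1 level in the values of these members was not tested.

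**Figure D3:**
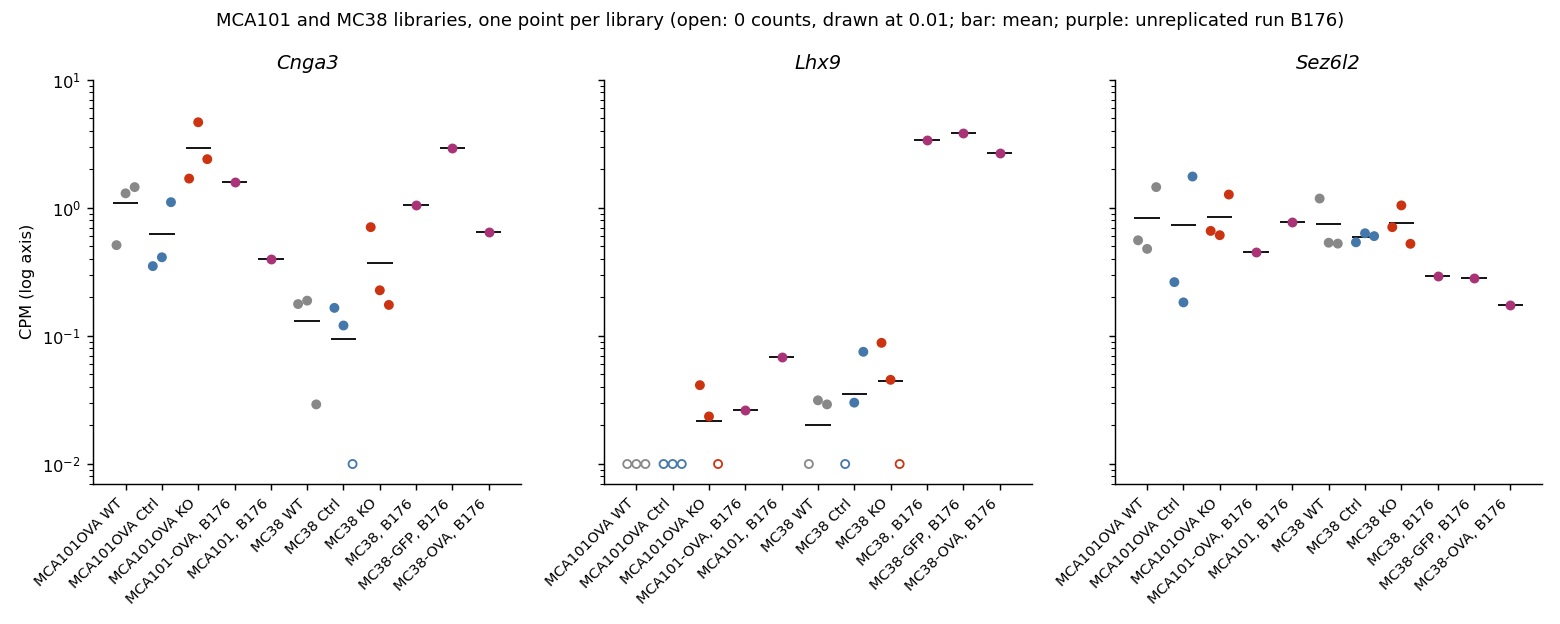
CPM (log axis, 1 point per library, open points at 0 counts drawn at 0.01, bars are means) of Cnga3, Lhx9 and Sez6l2 in MCA101 and MC38 libraries. Purple points are the unreplicated WT libraries of run B176. Cnga3 is higher in all 3 MCA101OVA KO libraries than in Ctrl and WT, and Lhx9 stands at 2.69 to 3.82 CPM in the 3 MC38 libraries of run B176 alone.

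Normal melanocytes, the pigment cells that melanoma derives from, gave the levels of these genes without a tumour. Cnga3 and Gabrr1 had 0 counts in all 5 melanocyte libraries, which allows up to 0.0236 CPM over the group, and Gabrr2 and Vwa3b had 1 and 3 counts. Sez6l held 0 to 0.453 CPM (16 counts) and Sez6 0 to 0.719 CPM (32 counts). Lhx9 held 1.96, 0.392, 1.08, 0.171 and 0.0826 CPM, and Efcab6 0.302, 1.77, 0.561, 4.24 and 3.02 CPM, so levels of these 2 varied widely between melanocyte libraries. The lower of these values were no higher than in unedited melanoma, where B16OVA WT and Ctrl libraries reached 0.428 CPM of Lhx9 and 0.818 of Efcab6. KO libraries of B16 and B16OVA lay above all melanocyte libraries for the 6 raised genes.

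B16OVA WT libraries of the same run (D176; replicates 4 to 6) were tested against melanocytes, and 3 members passed the filter. Efcab6 was lower in B16OVA WT, at 0.198, 0.0389 and 0.0638 CPM, below all 5 melanocyte libraries (log2 fold -4.16, SE 1.02, n = 3 against 5, edgeR adjusted p = 0.00993). Lhx9 held 0.198, 0.155 and 0.351 CPM in B16OVA WT and overlapped with melanocytes (log2 fold -1.63, SE 0.96, adjusted p = 0.203). Sez6l2 was called higher in B16OVA WT at 2.34, 0.700 and 2.07 CPM against 0.302, 1.27, 0.431, 0.445 and 0.537 (log2 fold 1.56, SE 0.52, adjusted p = 0.0327). The Sez6l2 groups overlapped, and the call was lost without any 1 of 6 libraries (B16OVA WT replicates 4 and 6, melanocyte replicates 1, 3, 4 and 5; adjusted p = 0.0616 to 0.142). Of all 16020 genes tested, 17% were called higher in B16OVA WT and 21.7% higher in melanocytes, and nothing is read from 1 call each way among 3 members. Melanocyte replicate 1 stood apart in its markers: 8 fibroblast markers summed to 18314 CPM there against 183 to 2502 in the others, and 9 melanocyte markers to 12916 CPM against 48180 to 68400. It was the highest of the 5 for Lhx9 and Sez6l and the lowest for Efcab6; the part of other cells in these values was not tested.

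The 12 tissues, which hold no retina, placed the Sez6 family in brain and the other members in several organs. Sez6l2 held 475, 395, 414 and 503 CPM in brain, Sez6l 251, 253.1, 288 and 279, and Sez6 137, 226, 193 and 160. Per kb these were 106, 44.1 and 31.0 CPM, and Sez6l2 stood above Sez6l and Sez6l above Sez6 in each library's per-kb level. Outside brain Sez6l was highest in thymus at 3.82 ± 1.15 CPM (SD, n = 4). Sez6l2 averaged 8.57 CPM in ovary and 7.68 in colon, and Sez6 3.29 ± 2.22 in ovary and 2.48 in stomach, with overlapping libraries. Ovary replicate 4 stands apart in its markers and is the only ovary library of run D804. Without it, ovary averaged 6.97 CPM of Sez6l2 and 2.22 of Sez6, below colon and stomach. Brain against the mean of the other 11 tissues gave log2 folds of 9.21 (SE 0.26) for Sez6, 8.47 (SE 0.25) for Sez6l and 6.88 (SE 0.18) for Sez6l2, with edgeR adjusted p of 7.62e-29, 2.57e-28 and 8.92e-30.

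Cnga3 was not a brain gene by level. It was highest in heart at 3.02, 3.23, 2.03 and 3.69 CPM (log2 fold over the other tissues 5.39, SE 0.32, adjusted p = 4.49e-18), followed by colon at 1.23 ± 0.333 CPM and stomach and spleen at 0.768 and 0.765 CPM, which overlapped. In brain it held 0.0906 CPM, and the brain contrast was not called (log2 fold -0.95, SE 0.56, adjusted p = 0.132). Its neighbour Vwa3b followed another pattern, with 6.12, 6.85, 10.2 and 5.33 CPM in lung (log2 fold 3.10, SE 0.29, adjusted p = 7.24e-12), 6.03, 7.32, 7.83 and 0.123 in ovary and 2.71 ± 0.277 in colon. Heart held 0.167 CPM of Vwa3b, so the tissue highest for Cnga3 was among the 3 lowest for Vwa3b.

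Gabrr1 was near 0 in every tissue. Brain held 0.195, 0.316, 0.157 and 0.236 CPM, ovary 0.214, 0.316, 0.258 and 0, and thymus 0.179 ± 0.0113 CPM (SD, n = 4), and these 3 overlapped. Brain was nevertheless called higher than the mean of the others (log2 fold 2.93, SE 0.45, adjusted p = 3.5e-07), while kidney had 0 counts. Gabrr2 went another way, with 6.04, 4.76, 4.26 and 4.53 CPM in the tissue labelled LN (log2 fold 2.77, SE 0.16, adjusted p = 3.78e-18), 2.60 ± 0.253 in heart, 2.12 and 2.10 in spleen and thymus and 1.22 ± 0.209 in brain. LN lay above every heart library, and spleen and thymus overlapped.

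Lhx9 held 7.56, 15.03, 11.9 and 13.6 CPM in ovary (log2 fold 7.14, SE 0.32, adjusted p = 2.39e-21) and 17.99, 2.97, 1.75 and 0.833 CPM in brain. The brain mean of 5.88 rests on replicate 1: the brain log2 fold was 6.28 (SE 0.33) with it and 4.64 without it. The next tissue was spleen at 0.327 CPM. Efcab6 held 5.38, 6.76, 8.58 and 4.65 CPM in lung (log2 fold 6.63, SE 0.36, adjusted p = 4.32e-19), 4.74, 8.49, 7.18 and 2.14 in ovary and 0.523, 2.56, 4.16 and 0.472 in brain, and lung and ovary overlapped. Ovary replicate 4 was the lowest ovary library for Vwa3b, Gabrr1, Efcab6 and Sez6l, and the highest for Sez6 (6.49 CPM against 1.48 to 2.94), Sez6l2 (13.3 against 6.35 to 7.41) and Gabrr2 (0.425 against 0.267 to 0.361). Its 8 epithelial markers summed to 70.3 CPM against 369 to 407 in the others, and its 7 ovary markers to 11214 against 1396 to 3620. The part of cell makeup in these values was not tested. The other ovary libraries are of run D812, so for replicate 4 run and library cannot be told apart. In these bulk samples, fewer cells of a type and less RNA per cell cannot be told apart.

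In brain, 7 of 9 members were called higher than the mean of the other 11 tissues (all but Cnga3 and Vwa3b), where 36.2% of 26242 genes tested were called. Such calls were not particular to brain. Sez6l, Sez6 and Sez6l2 were also called higher in colon and in stomach, at log2 folds of 0.62 to 3.11. Gabrr1 was also called higher in ovary, thymus, skin and stomach. Brain had the highest mean of the 12 tissues for 4 of the 9, Sez6l, Sez6, Sez6l2 and Gabrr1. The others were highest in heart (Cnga3), LN (Gabrr2), lung (Vwa3b and Efcab6) and ovary (Lhx9). Without ovary replicate 4, ovary came first for Gabrr1 (0.263 CPM against 0.226 in brain) and Efcab6 (6.80 against 6.34 in lung), and the order for Vwa3b held narrowly (7.06 against 7.12 in lung). Shares of all genes called higher there were 28.5% in heart, 32.6% in LN, 31.8% in lung and 32.4% in ovary. As a label, "neuronal" thus fits the levels of the Sez6 family in these tissues, while "retinal" could not be checked without retina.

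**Figure D4:**
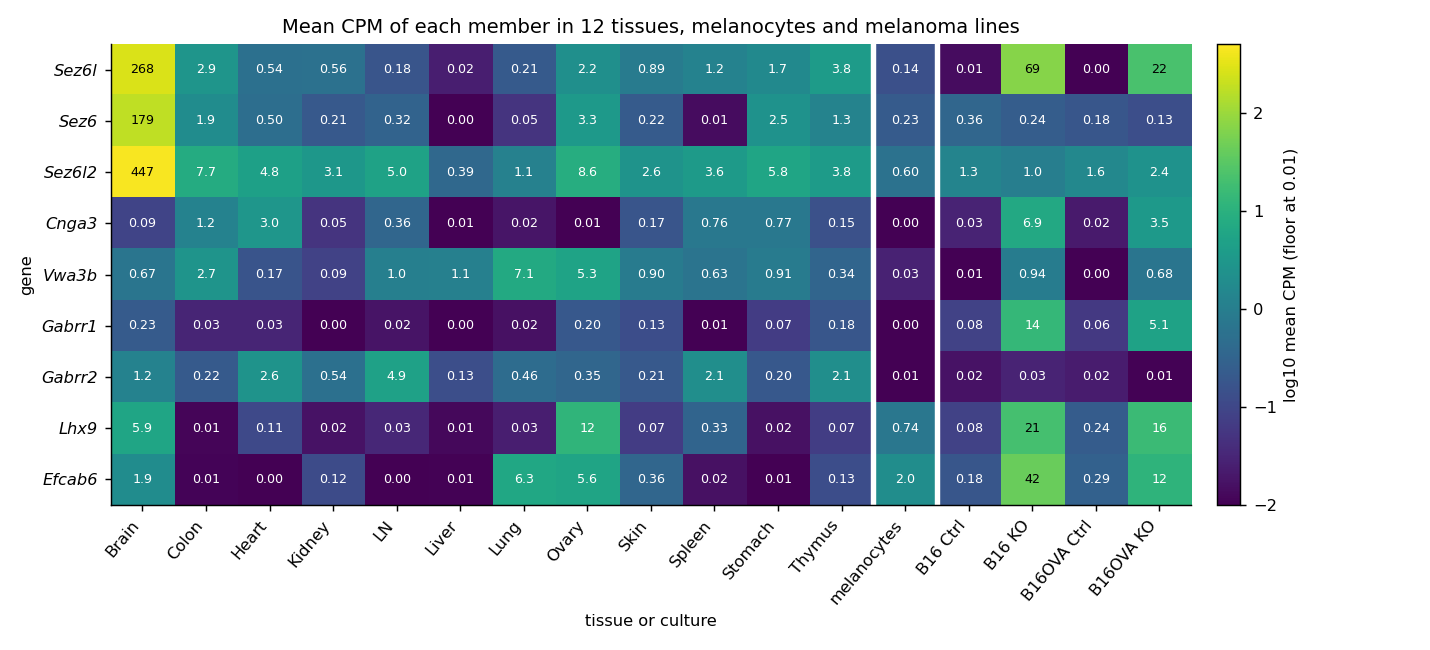
Mean CPM (colour on a log10 scale, value printed in each cell) of the 9 genes in 12 tissues, melanocytes and the Ctrl and KO groups of B16 and B16OVA. Brain is the brightest column for the Sez6 family, while Cnga3, Vwa3b, Gabrr2, Lhx9 and Efcab6 have their highest tissue elsewhere.

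Set against the tissue with the highest mean over all 4 libraries, the KO melanoma levels fell on both sides. Gabrr1 in KO cells exceeded brain 60.7-fold in B16 and 22.8-fold in B16OVA, with every KO library above every brain library. Efcab6 exceeded lung 6.62-fold in B16, with no overlap, and 1.83-fold in B16OVA, where libraries overlapped. Cnga3 exceeded heart 2.30-fold in B16 with no overlap and was level with it in B16OVA (ratio 1.16, overlapping). Lhx9 overlapped with ovary in both lines, at ratios of 1.71 and 1.31. Sez6l reached 0.259 of the brain level in B16 and 0.0833 in B16OVA, and Vwa3b 0.132 and 0.0957 of the lung level, with every KO library below every library of that tissue. Tissues and cultured cells were prepared by different lysis protocols, and tissue libraries were deeper, so these ratios compare CPM across preparations and carry no test.

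**Figure D5:**
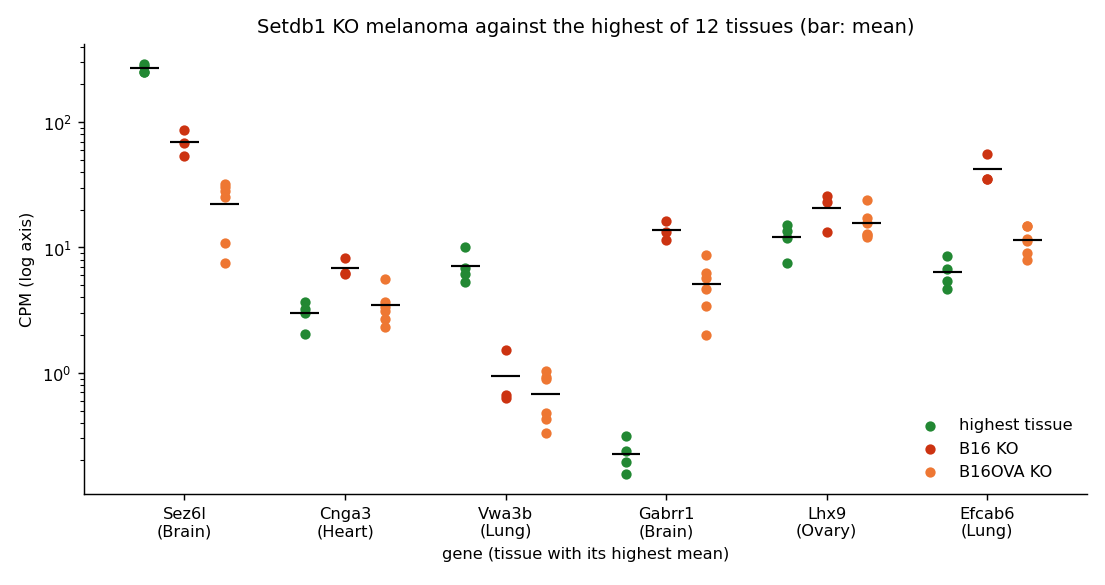
CPM (log axis) of the 6 raised genes in each library of the tissue with the highest mean (green), of B16 KO (red) and of B16OVA KO (orange); bars are means. Gabrr1 KO libraries lie far above the highest tissue, and Sez6l and Vwa3b KO libraries below it.

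None of the pathway partners of the members that could be tested was called in any line, where under 1% of all genes tested were called higher in KO (0.339% for MCA101OVA, 0.464% for MC38, 0.660% for B16 and 0.994% for B16OVA). With these shares, 0 calls in lists of this size is near the background and is no result about them. Of the other GABA-A receptor subunits, 4 of 17 passed the filter, and of other cyclic nucleotide-gated channel and phototransduction genes 13 of 31. Those of the LIM homeobox family numbered 8 of 17, and the other CUB and sushi domain genes with the Bace proteases that cut Sez6 proteins 7 of 15. Of 20 other von Willebrand A and EF-hand genes listed, 19 were found in the counts and 15 passed the filter. For each of these 5 lists, edgeR and DESeq2 called 0 genes in B16, B16OVA, MCA101OVA and MC38. Counts at an unadjusted p under 0.05 in these lines in that order were 1, 1, 0 and 0 for GABA-A subunits, 0, 2, 1 and 0 for channel and phototransduction genes, 2, 1, 0 and 0 for LIM homeobox genes, 1, 0, 0 and 0 for CUB and sushi genes and 0, 0, 2 and 0 for von Willebrand A and EF-hand genes. In B16 the median log2 folds were 0.37, 0.05, -0.00155, 0.12 and -0.18, and in B16OVA 0.40, 0.19, 0.10, 0.15 and -0.02.

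Lists of neuronal and retinal genes could be tested only in part, and 0 calls among them is likewise near the background. Of 24 neuronal markers 10 were tested, of 17 retinal transcription factors 4, and of 14 genes of the REST corepressor complex, which silences neuronal genes in other cells, all 14; edgeR and DESeq2 called 0 in any of the 4 lines. At an unadjusted p under 0.05 there were 3 neuronal markers in B16OVA and 2 in MC38, 2 retinal factors in MCA101OVA and 1 in MC38, and 0 genes of the REST complex. The 24 neuronal markers summed to 170 to 316.6 CPM in B16 KO against 240 to 320 in Ctrl, and to 120 to 277 CPM in B16OVA KO against 164 to 433 in Ctrl. In brain they summed to 10196 to 13341 CPM. In B16 KO 5 of 24 reached a mean of 1 CPM and 9 were at 0 counts, and in B16 Ctrl 4 and 13. Neuronal marker sums thus overlapped between KO and Ctrl in both lines.

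Markers of cell identity were read the same way. The 9 melanocyte markers were all tested with 0 called in any line (3 at an unadjusted p under 0.05 in MC38, 0 by DESeq2), and so were the tested ovary (3 of 7), epithelial (4 of 8) and leukocyte (1 of 5) markers, with 0 called by edgeR or DESeq2 and 0 at an unadjusted p under 0.05. Among glia markers (5 of 6 tested), Mbp, myelin basic protein, rose in B16OVA KO to 114 ± 33.3 CPM from 36.2 ± 5.88 in Ctrl (SD, n = 6; log2 fold 1.49, SE 0.38, edgeR adjusted p = 0.0358). B16OVA WT lay between them at 74.2 ± 33.3 CPM, and its libraries (43.9 to 128 CPM) overlapped with KO (59.5 to 150 CPM). WT replicates 2 and 5, at 128 and 99.8 CPM, are libraries of low length slope (-0.37 and -0.25). In B16, where Mbp was not called, KO libraries held 46.9 to 74.5 CPM against 23.4 to 37.0 in Ctrl and 23.6 to 39.7 in WT. Among fibroblast markers (5 of 8 tested), the collagen genes Col1a1 and Col1a2 rose in MC38 KO, to 8.28 from 0.883 CPM and to 57.5 from 4.78 CPM (n = 3 against 3; log2 folds 3.15, SE 0.49, and 3.50, SE 0.72; adjusted p = 0.00024 and 0.00879). No other gene of these 2 lists was called in any line by edgeR.

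Genes most like the raised members were sought by Pearson correlation of log2 CPM over 25 groups of libraries, among 21465 genes with a group mean of at least 1 CPM somewhere. These groups share libraries' depth and runs and include the KO melanoma groups that chose the members, so the values are a description. Lhx9 and Efcab6 were among each other's 3 most alike genes (r = 0.84). Got1l1, a relative of the aspartate aminotransferase genes, was close to both (0.89 to Efcab6 and 0.79 to Lhx9), at 0.804 CPM in KO libraries of B16 and 1.05 in those of B16OVA. Cfap57, a cilia and flagella gene, followed Efcab6 (0.85) and stood at 1.23 CPM in B16 Ctrl and 12.5 in KO. Gabrr1 was most like the predicted genes Gm43970 (0.95) and Gm30146 (0.92) and the zinc finger gene Zfp986 (0.88), and it was the third most alike gene to Lhx9 (0.78). For Cnga3 they were Gm14267 (0.83), Gm36551 (0.70) and the zinc finger gene Zfp534 (0.69), where Gm14267 reached 25.1 and 34.1 CPM in KO libraries of B16 and of B16OVA. For Sez6l they were Pacsin1, a neuronal endocytosis protein (0.81; 26.2 CPM in B16 KO against 1.12 in Ctrl), Gm42851 (0.80) and the clustered protocadherin Pcdhgc5 (0.78). Cnga3 and Sez6l were not among the 3 genes most alike to any other raised member.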

How the data were processed

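Gene counts of 105 libraries were deposited by the authors as raw read counts per Ensembl gene, made from stranded mRNA libraries. Per the submitters' processing notes, Trim Galore, FastQC, STAR, HTSeq and mm10 were used, and their versions, the annotation, the strand setting and the treatment of multimapping reads are not stated there. Symbols of GENCODE vM21 were found for 53274 of the 53379 IDs, and 154 pairs of libraries within groups held 0 identical pairs. The 9 members and the gene lists were chosen with earlier results of these data known.

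From these counts CPM was computed on library totals of 17.2 to 254, in units of 1000000 counts. Tests used edgeR 4.0.16 quasi-likelihood fits (TMM, filterByExpr by group, Benjamini-Hochberg adjustment over all tested genes, threshold 0.05) in R 4.3.3: 45 line libraries with group and sequencing run as named in the columns, 11 libraries of run D176 for melanocytes (B16OVA WT, MC38 WT and melanocytes, no covariate), and 48 tissue libraries with tissue and run, each tissue against the mean of the other 11. The fits were tested on simulated data. Each SE of an edgeR log2 fold is the absolute log2 fold divided by the square root of the quasi-likelihood F, and so is approximate. Ratios of summed counts carry exact 95% intervals that cover counting error only, as does the floor of 3 counts. DESeq2 1.42.0, RLE size factors, other filters, other terms and each library left out in turn were the alternatives, and 2 involving the length slope (of log2 CPM deviation on log2 exonic length over 12457 genes) and the ovary means without replicate 4 were added after seeing the data. Named genes are the members, neighbours and list genes called, and the 3 genes most alike to each raised member by Pearson correlation of log2(CPM + 0.1). Sgsm1, Fam178b and the genes named for an unadjusted p were named after their values were seen. Marker lists covered melanocyte, neuronal, glia, ovary, fibroblast, epithelial and leukocyte genes. Promoters are RefSeq windows of GRCm38.p6, and coordinates are 1-based.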

Additional observations from a re-analysis of the deposited data

Results flagged for a closer look

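In 48 gene and group combinations of 4 to 6 libraries with a mean of at least 1 CPM, 5 held a library farther from the others than Dixon's 95% value allows, where chance gives about 1 in 20. Sez6l2 gave 4 of them: kidney replicate 2 was highest at 9.08 CPM, lung replicate 3 highest at 1.31, ovary replicate 4 highest at 13.3 and stomach replicate 2 lowest at 5.0. Lhx9 in brain gave the other, with replicate 1 at 18 CPM.

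Run B176 holds 7 WT libraries without replicates that no test used. Lhx9 stood at 2.69 CPM in MC38-OVA, 3.82 in MC38-GFP and 3.4 in MC38 of that run, while no WT or Ctrl library of MC38 in the other runs exceeded 0.0752 CPM. Cnga3 stood at 2.93 CPM in MC38-GFP and 1.04 in MC38, against at most 0.189 in the other WT and Ctrl libraries of the line. In MCA101-OVA of run B176 Cnga3 held 1.59 CPM, close to the highest other control of that line at 1.45. The 8 epithelial markers summed to 2.10, 0.247 and 0.204 CPM in MC38-OVA, MC38-GFP and MC38 of run B176, against 454 to 1926 in the other MC38 libraries, and their part in these values was not tested. None of these 3 libraries is labelled as a Setdb1 knockout.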

How the results depend on the processing

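The count of members called in MCA101OVA was 0 by edgeR and 1 (Cnga3) with DESeq2 or with the length slope as a covariate, and 0 under every other alternative run; in MC38 it was 0 under all of them, where most members had too few counts for a call. Against melanocytes it was 2, and 1 with no filter on low counts; leaving out 1 library gave 1 to 2. Sez6l2 was the call lost in each case, and its adjusted p without the filter was 0.0894. The brain count was 7 under all alternatives run, and the 6 raised members in B16 and B16OVA were 6, or 5 under the stricter filter, which Vwa3b did not pass. Fitted log2 folds moved by more than 1 SD only for genes with few control counts, such as Vwa3b in B16OVA (7.42, or 6.39 with DESeq2), and the prior count sets such values. Neighbours that are not members and were called higher within 500 and 1000 kb numbered 1 and 3 in B16, 1 and 2 in B16OVA and 0 and 1 in MCA101OVA. Leaving out ovary replicate 4, an alternative chosen after seeing the data, turned the order of tissues for Sez6, Sez6l2, Gabrr1 and Efcab6. The labels give no replicate numbers; with the number in the library names as a replicate block, counts stayed at 0 in MCA101OVA, 0 in MC38 and 7 in brain, and the pairing has no source in the labels. Depth limits the low genes: in MC38 KO, 3 counts over the group stand for 0.0485 CPM.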
